A study of Mus musculus with 12 samples.

Results

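The genes described here encode 10 receptors: the protease-activated receptor family, to which the thrombin receptors belong, and receptors of ADP, ATP, thromboxane A2, prostacyclin and prostaglandin E2, agents that act on platelets and megakaryocytes. They are F2r, F2rl1, F2rl2, F2rl3, P2ry1, P2ry12, P2rx1, Tbxa2r, Ptgir and Ptger4, chosen by name. All 10 were found among the 35869 genes of the deposited tables, and all 10 were among the 19395 genes that passed the low-count filter. The cells were mouse bone marrow haematopoietic stem cells (HSCs), separated by FACS on CD41 into a CD41pos and a CD41neg fraction before RNA sequencing. CD41 is the integrin alpha chain encoded by Itga2b and marks megakaryocytes, platelets and a fraction of HSCs. Mice of every group carried RUNX1f/f, that is floxed alleles of the gene for the blood transcription factor RUNX1, and received 4 injections of poly(I:C), an inducer of interferon, with cells taken 4 weeks after injection. Control mice (WT) were MxCre1-/-, and knockout mice (KO) were MxCre1+/-. There were 4 groups of 3 libraries: CD41neg WT, CD41pos WT, CD41neg KO and CD41pos KO. The Mx1 promoter answers to interferon in many cell types, so deletion is not limited to HSCs. Strain and age were not found in the labels, which also do not say how many mice gave each library, so p-values measure the spread between these libraries.

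Thrombin cleaves the extracellular end of the protease-activated receptors, and the new end acts as a tethered ligand. In mouse platelets PAR4 (F2rl3) carries the thrombin signal, PAR3 (F2rl2) acts as its cofactor, and PAR1 (F2r) is little used, whereas in human platelets PAR1 is the main high-affinity receptor. ADP acts on P2Y1 (P2ry1), which couples to Gq and starts shape change, and on P2Y12 (P2ry12), which couples to Gi and sustains aggregation, while P2X1 (P2rx1) is an ATP-gated cation channel. Thromboxane A2 acts on the TP receptor (Tbxa2r), coupled to Gq and G13, and prostacyclin opposes it through the Gs-coupled IP receptor (Ptgir), as prostaglandin E2 can through EP4 (Ptger4).

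Libraries held between 44108035 and 58946457 gene counts. Runx1 counts over the whole gene did not fall in the KO libraries, with log2 fold changes of 1.13 ± 0.15 (SE) in CD41pos and 1.03 ± 0.15 in CD41neg HSCs (edgeR quasi-likelihood, adjusted p = 0.00201 and 0.00368), and a count over the whole gene does not check the deletion of single exons. Itga2b was higher in the CD41pos gate in both genotypes, by a log2 of 2.59 ± 0.29 in WT and 2.18 ± 0.29 in KO (adjusted p = 0.000906 and 0.00181). The 13 HSC markers examined, a list that also holds Flt3, Cd48 and Cd34, were all detected, with summed levels of 1019 to 2606 CPM. This sum hides markers that differed in direction. Cd48 had 54.8 to 75.7 CPM in CD41pos WT and 213 to 229 CPM in CD41pos KO libraries. Hoxb5 had 8.17 to 13.7 CPM in CD41pos WT and 4.14 to 4.25 CPM in CD41pos KO libraries. Procr, with 18.1 to 41.3 and 6.24 to 22.8 CPM, overlapped between these groups. In KO against WT, 2 of the 13 rose and 1 fell in each gate. Of all tested genes 17.1% were called in CD41pos and 7.82% in CD41neg HSCs. Among the 12 libraries, 4 WT libraries stood apart: CD41pos WT 1, CD41pos WT 4, CD41neg WT 2 and CD41neg WT 4 held 18.6 to 27.7 CPM of the immediate early gene Nr4a1, against 237 to 396 CPM in the other 8. Where a term for these 4 libraries changed a receptor's call, the value with that term is given. For some receptors the value from the 8 libraries without them is given as well. That fit leaves 1 WT library per gate, so that its spread comes from the KO libraries. The lone WT libraries are assumed to vary like them. The female transcript Xist and the Y-linked Ddx3y were not balanced between genotypes either: KO 1 and KO 3 libraries held Ddx3y at 83.4 to 103 CPM, KO 2 libraries held Xist at 308 to 318 CPM, and 4 of the 6 WT libraries held both.

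F2r, F2rl2 and F2rl1 are neighbours on chromosome 13 (GRCm38, GENCODE vM21). F2r lies at chr13:95601803-95618487 on the minus strand, F2rl2 at chr13:95696853-95702739 on the plus strand and F2rl1 at chr13:95511732-95525227 on the minus strand. F2rl3 lies at chr8:72761880-72763874, P2ry12 at chr3:59216272-59262871, P2ry1 at chr3:61002795-61008982, P2rx1 at chr11:72999103-73015200, Tbxa2r at chr10:81328731-81335172, Ptgir at chr7:16906490-16910905 and Ptger4 at chr15:5206661-5244187. Each is a protein-coding gene. RefSeq promoter sequence (GRCm38.p6) was found for 9 of the 10, F2rl1 being without an entry. The 250 bases before each start were searched on both strands for the RUNX factor spelling TGTGGT, for a second RUNX spelling with the letters TGCGGT, for the GATA factor spelling AGATAA and for the ETS factor spelling AGGAAG. Only the F2r promoter among these held a RUNX spelling, and it held both. P2ry1 was called in as many of the comparisons below as F2r, and its promoter held none of these spellings. The promoters of F2r, F2rl2 and Tbxa2r, which are among the genes with the most calls, are shown with the matches in capitals. They are written 5′ to 3′ on the gene's own strand, without bases that GENCODE places in an exon of the gene. The intervals are chr13:95618488-95618716 (minus strand), chr13:95696670-95696852 (plus strand) and chr10:81328018-81328267 (plus strand, the first of 2 RefSeq starts).
F2r: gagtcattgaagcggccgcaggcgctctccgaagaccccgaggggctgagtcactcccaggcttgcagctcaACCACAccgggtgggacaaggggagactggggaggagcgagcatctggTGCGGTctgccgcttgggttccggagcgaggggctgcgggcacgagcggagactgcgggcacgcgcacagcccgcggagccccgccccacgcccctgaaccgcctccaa
F2rl2: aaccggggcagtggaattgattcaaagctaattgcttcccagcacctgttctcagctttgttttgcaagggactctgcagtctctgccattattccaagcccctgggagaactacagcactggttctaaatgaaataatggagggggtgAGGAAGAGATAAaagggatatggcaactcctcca
Tbxa2r: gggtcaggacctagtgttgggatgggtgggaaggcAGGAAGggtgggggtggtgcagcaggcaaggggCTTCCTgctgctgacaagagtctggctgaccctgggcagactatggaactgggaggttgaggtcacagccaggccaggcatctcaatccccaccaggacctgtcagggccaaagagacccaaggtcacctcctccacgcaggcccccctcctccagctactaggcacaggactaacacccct

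In the F2r promoter the first RUNX spelling lay on the opposite strand 178 bases before the start, so that it is printed as ACCACA. The second lay on the gene's strand 130 bases before the start. In the F2rl2 promoter the ETS spelling, 101 bases before the start, was followed directly by the GATA spelling, 95 bases before it. The promoter of the first Tbxa2r start held the ETS spelling once on each strand. The promoter of the second start, chr10:81328453-81328702, held none of the spellings searched. Of 32851 promoter windows of this length, 14.0% held the first RUNX spelling, 5.1% the second, 9.99% the GATA spelling and 29.5% the ETS spelling on either strand. A match describes these letters only and is not a measured binding site.

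F2r was the most abundant of the 10 transcripts in every group. On the TPM scale, which divides by gene length and so allows genes to be compared, the F2r level was 138 ± 35.9 in CD41neg WT, 264 ± 129 in CD41pos WT, 402 ± 116 in CD41neg KO and 790 ± 103 in CD41pos KO (mean ± SD, n = 3 each). In each group its lowest library lay above the highest library of any other member. In CD41pos WT, F2rl2 (59.6 ± 14.7 TPM), F2rl3 (55.5 ± 4.05), P2rx1 (42.0 ± 14.5) and Tbxa2r (26.6 ± 1.58) followed in that order, each overlapping the next in range up to Tbxa2r, which lay above P2ry1 (16.3 ± 5.14) and Ptger4 (16.0 ± 6.29). In CD41pos KO the order after F2r was F2rl2 at 154 ± 26.4 TPM, P2ry1 at 63.8 ± 14.5, F2rl3 at 41.7 ± 3.71 and P2rx1 at 39.7 ± 4.22, and only the last pair of these overlapped. In CD41neg WT the second place was held by F2rl3 (29.7 ± 4.35 TPM), whose range overlapped that of Ptger4 (23.5 ± 3.77). In CD41neg KO, Ptger4 (31.2 ± 2.31 TPM), F2rl3 (27.6 ± 10.7), F2rl2 (24.4 ± 6.31), P2rx1 (21.9 ± 10.1) and P2ry1 (19.5 ± 6.71) were not separated from their neighbours in the order. F2rl1 and P2ry12 were the lowest 2 members in every group, with mean TPM of at most 0.7. The summed TPM of the 10 genes was 170 to 271 in CD41neg WT, 281 to 600 in CD41pos WT, 466 to 653 in CD41neg KO and 991 to 1263 in CD41pos KO libraries.

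**Figure D1:**
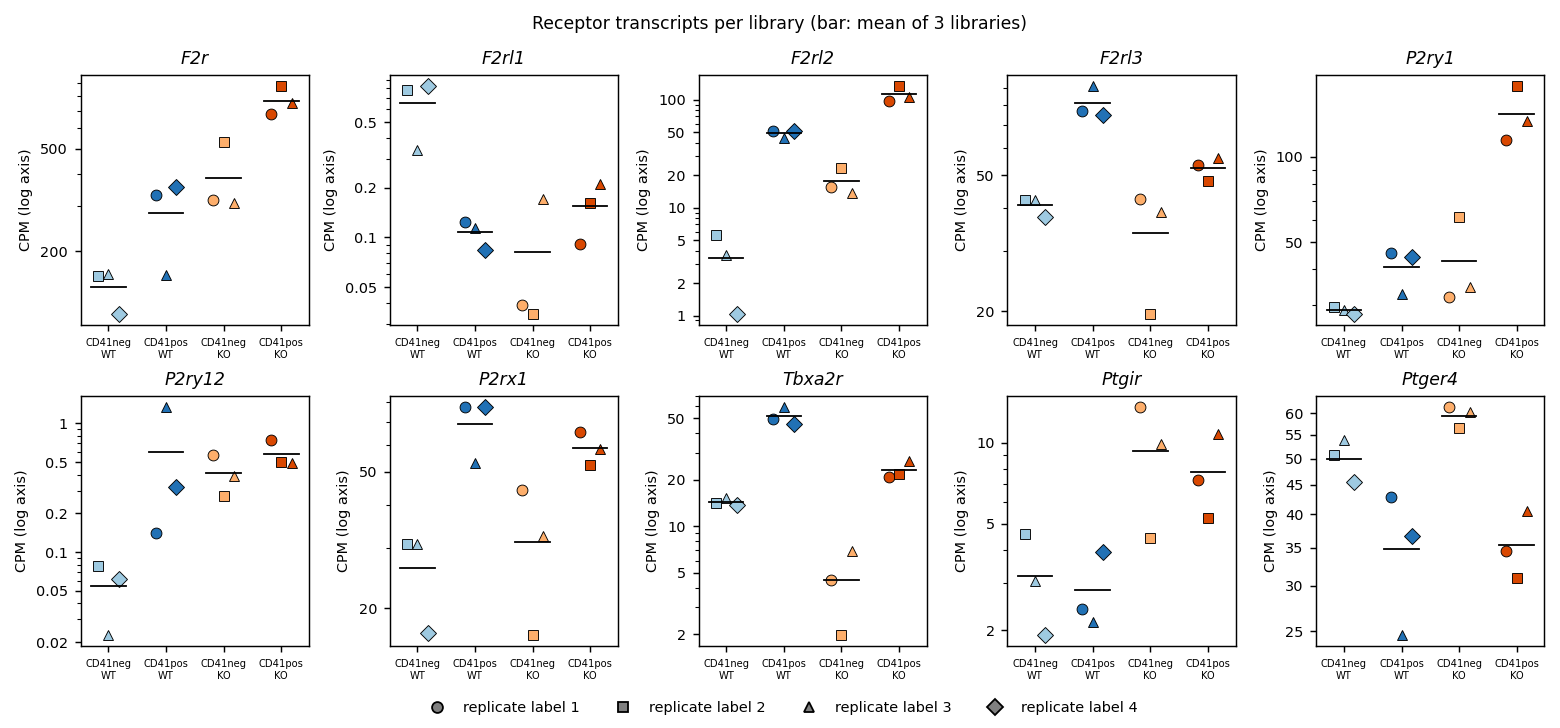
Normalised counts (CPM, log axis, with its own range for each gene) of the 10 receptor genes in each of the 12 libraries, with symbols for the replicate label and a bar for the mean of 3 libraries. F2r is highest in the 3 CD41pos KO libraries (680 to 878 CPM), and Tbxa2r is lowest in the 3 CD41neg KO libraries (1.98 to 6.94 CPM).

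In CD41pos HSCs, KO libraries held more F2r, P2ry1 and Ptgir and less Tbxa2r than WT libraries. Thus 4 of the 10 genes passed the test (edgeR quasi-likelihood, Benjamini-Hochberg adjusted p below 0.05), beside 17.1% of all tested genes, and 3 were higher (9.79% of all genes) and 1 lower (7.27%). Of all tested genes 1899 were higher and 1410 lower there, against 1674 and 763 with limma on log2(TPM + 1). In CD41neg HSCs, KO libraries held more F2r and F2rl2 and less Tbxa2r and F2rl1, again 4 of 10, beside 7.82% of all tested genes (3.85% higher and 3.97% lower). The CD41pos gate of WT mice held more F2rl2, Tbxa2r, P2rx1, F2rl3 and P2ry12 than the CD41neg gate, 5 of 10 beside 5.59% of all tested genes (2.72% higher and 2.87% lower). The CD41pos gate of KO mice held more F2rl2, Tbxa2r and P2ry1, 3 of 10 beside 2.79% of all tested genes (1.56% higher and 1.23% lower). The median log2 fold change of the 10 genes was 0.27, 0.41, 0.97 and 0.90 in these comparisons, beside medians over all tested genes of -0.08, -0.03, 0.01 and -0.02. The comparisons share libraries, so their counts are not independent. In these bulk samples, fewer cells that express a gene and less of its RNA per cell cannot be told apart.

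The interaction, which asks whether the genotype difference is not the same in both gates, called none of the 10 genes and 0% of all tested genes with edgeR. At an unadjusted p below 0.05 it had 3 of the 10 and 1093 of all genes, while DESeq2 called 73 genes and limma on log2(TPM + 1) called 7, no member among them. The smallest p among the 10 was that of P2ry1, with a log2 difference between gates of 1.22 ± 0.34 (edgeR, adjusted p = 0.7), so a dependence on the gate was shown for none of the 10.

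**Figure D2:**
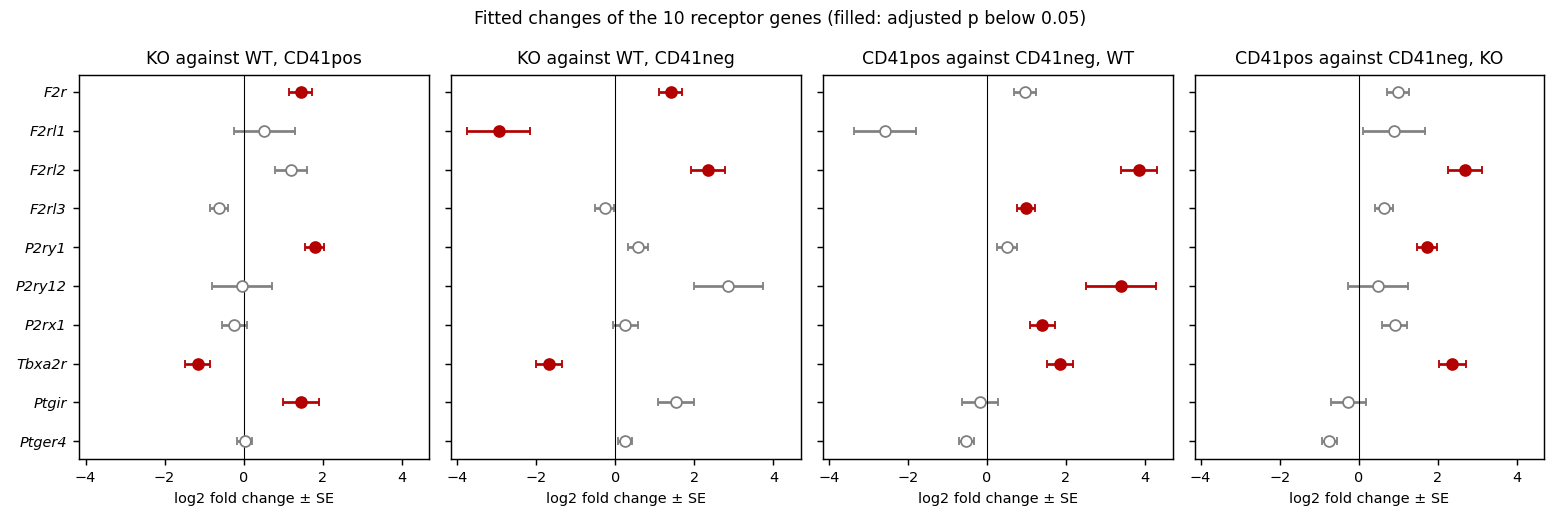
Fitted log2 fold changes (horizontal axis, bars ± SE) of the 10 receptor genes in the 4 comparisons between groups, with filled points for an adjusted p below 0.05. Tbxa2r is filled in all 4 panels, to the left of 0 in both KO against WT panels and to the right in both gate panels, and F2r is filled to the right of 0 in both KO against WT panels.

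Among the thrombin receptors, F2r was higher in KO libraries of both gates. Its levels were 160, 163 and 114 CPM in CD41neg WT 2, 3 and 4, and 317, 531 and 309 CPM in CD41neg KO 1, 2 and 3. In CD41pos HSCs they were 332, 162 and 354 CPM in WT 1, 3 and 4, and 680, 878 and 754 CPM in KO 1, 2 and 3. Every KO library lay above every WT library of its gate, and CD41pos WT 3 was alone at the CD41neg WT level. F2r rose by a log2 of 1.45 ± 0.29 in CD41pos (adjusted p = 0.00831) and 1.40 ± 0.29 in CD41neg HSCs (adjusted p = 0.0156). The CD41neg call was lost without CD41neg WT 4 (adjusted p = 0.0651) or CD41neg KO 2 (0.0519), and from the 8 libraries the CD41pos value was 2.33 (0.00137) and the CD41neg value 1.24 (0.0567). Between gates the F2r log2 difference was 0.96 ± 0.28 in WT (adjusted p = 0.0705) and 1.00 ± 0.28 in KO (0.095). The WT value was -0.07 from CD41pos WT 3 and CD41neg WT 3 alone, and was 1.25 without CD41pos WT 3 (adjusted p = 0.0119). With the KO libraries paired by their label in a fit of their own, F2r was higher in the CD41pos gate of KO mice by 1.03 (adjusted p = 0.0037), while with the label as a block over all 12 libraries the value was 1.04 and missed the threshold (0.193).

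F2rl2, the PAR4 cofactor, had the largest fitted gate difference of the 10 genes in both genotypes. It had 5.63, 3.61 and 1.03 CPM in CD41neg WT 2, 3 and 4 and 51.7, 44.3 and 51.6 CPM in CD41pos WT 1, 3 and 4. It had 15.6, 23.3 and 13.6 CPM in CD41neg KO 1, 2 and 3 and 96.8, 134 and 106 CPM in CD41pos KO 1, 2 and 3. The 4 groups did not overlap at any point. F2rl2 rose with the gate by a log2 of 3.84 ± 0.46 in WT (adjusted p = 0.00113) and 2.68 ± 0.43 in KO (0.00524), and in KO against WT by 2.35 ± 0.43 in CD41neg HSCs (0.0102). In CD41pos HSCs the KO against WT value was 1.19 ± 0.41 and missed the threshold (adjusted p = 0.0608), which it passed when CD41neg WT 2 (0.0363) or CD41neg WT 4 (0.00766) was left out. Leaving out any of the other 10 libraries gave no call, with values of 1.05 to 1.29 (adjusted p up to 0.177). DESeq2 called that value (adjusted p = 0.0172), and with the replicate number as a block it was 0.69 (0.248).

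F2rl3 encodes PAR4, the receptor that signals for thrombin in mouse platelets, and its pattern was not that of F2r. Its levels were 42.2, 42.4 and 37.8 CPM in CD41neg WT 2, 3 and 4 and 76.8, 91.2 and 75.1 CPM in CD41pos WT 1, 3 and 4. In KO libraries 1, 2 and 3 they were 42.6, 19.6 and 39.1 CPM in CD41neg and 53.7, 48.0 and 56.0 CPM in CD41pos HSCs. The 3 CD41pos KO libraries lay below the 3 CD41pos WT libraries, and CD41neg KO 2 was low by itself. F2rl3 rose with the gate in WT by a log2 of 0.99 ± 0.23 (adjusted p = 0.0283), a call lost without CD41neg WT 2, 3 or 4, CD41pos WT 1 or CD41pos WT 3 (0.051 to 0.0935) and from the 8 libraries (0.137). The KO against WT value was -0.62 ± 0.23 in CD41pos (adjusted p = 0.0759) and -0.27 ± 0.23 in CD41neg HSCs (0.474), and the gate value in KO was 0.64 ± 0.23 (0.203). With the level of Y-linked genes as a covariate the CD41pos value was -0.73 and passed (adjusted p = 0.0251). It also passed with DESeq2 (0.0433), in the fit of only the groups compared (0.0356) and without CD41neg KO 2 (0.0103). None of the other fits called it.

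F2rl1 encodes PAR2, which is cleaved by trypsin-like proteases rather than by thrombin, and it was close to absent. It had 40, 15 and 40 counts in CD41neg WT 2, 3 and 4 and 2, 2 and 10 counts in CD41neg KO 1, 2 and 3. Its counts were 7, 5 and 5 in CD41pos WT 1, 3 and 4 and 5, 9 and 12 in CD41pos KO 1, 2 and 3. The CD41neg WT libraries were the only ones above 12 counts. F2rl1 fell in KO against WT CD41neg HSCs by 2.95 ± 0.80 on the log2 scale (adjusted p = 0.0433). The call did not hold without any 1 of 10 libraries, the exceptions being CD41neg WT 3 and CD41pos WT 3, with adjusted p of 0.0507 to 0.136. The same was seen with a term for the WT libraries that stood apart (0.11), with the Y-linked covariate (0.0615) and in the fit of only the groups compared (0.0661).

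As shares of the summed TPM of F2r, F2rl2 and F2rl3, the thrombin receptors were composed differently by group. F2rl3 made up 16.3 to 20.2% in CD41neg WT and 12.1 to 24.1% in CD41pos WT libraries, but 2.63 to 8.88% in CD41neg KO and 3.39 to 4.87% in CD41pos KO libraries. Every KO library thus had a smaller PAR4 share than every WT library. F2rl2 made up 14.3 to 20.3% in CD41pos WT and 15.1 to 16.4% in CD41pos KO, against 0.98 to 3.78% in CD41neg WT and 5.07 to 5.62% in CD41neg KO libraries. F2r made up the rest, from 55.6% in CD41pos WT 3 to 92.0% in CD41neg KO 2. These shares are descriptions with no test, and a share moves when another member moves.

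**Figure D3:**
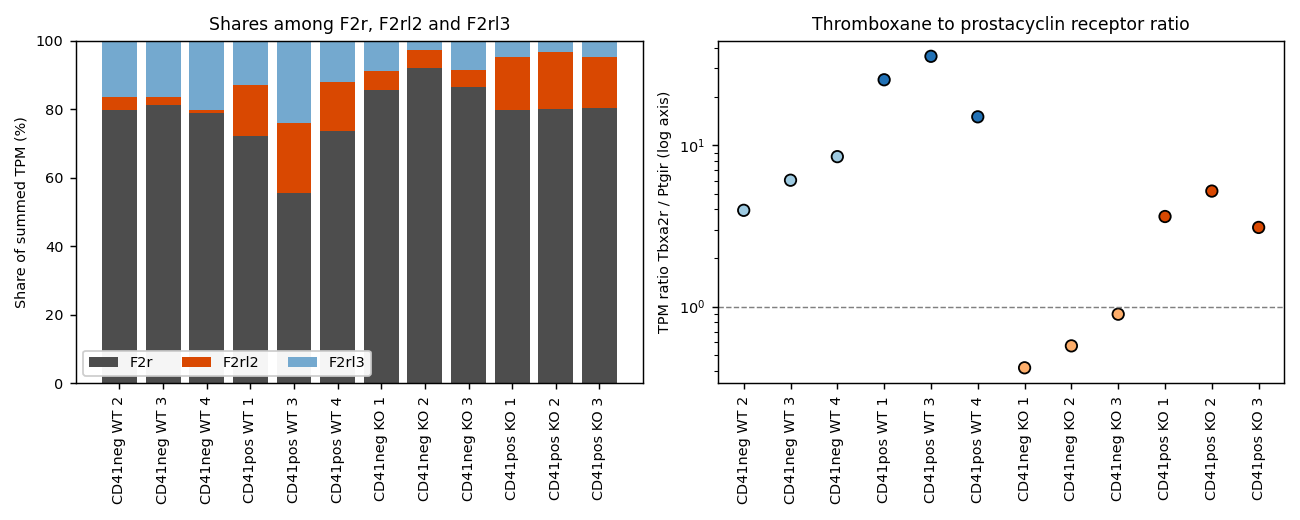
Left, stacked shares (%) of the summed TPM of F2r, F2rl2 and F2rl3 in each library. Right, the TPM of Tbxa2r divided by that of Ptgir in each library on a log axis, with a dashed line at 1; only the 3 CD41neg KO libraries (0.418 to 0.898) lie below the line, and the CD41pos WT libraries lie between 15.0 and 35.6.

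Among the nucleotide receptors, P2ry1 was high in CD41pos KO HSCs. The Gq-coupled ADP receptor had 29.5, 28.9 and 27.9 CPM in CD41neg WT 2, 3 and 4 and 45.6, 32.9 and 44.1 CPM in CD41pos WT 1, 3 and 4. In KO libraries 1, 2 and 3 it had 32.0, 61.5 and 34.8 CPM in CD41neg and 115, 178 and 133 CPM in CD41pos HSCs. The CD41pos KO libraries lay above all 9 others, whose highest was CD41neg KO 2. P2ry1 rose in KO against WT CD41pos HSCs by a log2 of 1.80 ± 0.25 (adjusted p = 0.00226) and in the CD41pos against the CD41neg gate of KO mice by 1.73 ± 0.25 (0.00276). The KO against WT value in CD41neg HSCs was 0.57 ± 0.24 (adjusted p = 0.157) and the gate value in WT was 0.51 ± 0.24 (0.248). Both calls were made in each of the 12 fits that left out 1 library and in each other alternative run.

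P2rx1, the ATP-gated channel, was called only between the gates of WT mice. It had 30.8, 30.9 and 17.0 CPM in CD41neg WT 2, 3 and 4 and 77.1, 52.9 and 77.0 CPM in CD41pos WT 1, 3 and 4. In KO libraries 1, 2 and 3 it had 44.3, 16.7 and 32.6 CPM in CD41neg and 65.2, 52.3 and 58.1 CPM in CD41pos HSCs. CD41pos libraries of both genotypes lay above CD41neg libraries of both. P2rx1 rose with the gate in WT by a log2 of 1.40 ± 0.32 (adjusted p = 0.0275), and the value in KO was 0.91 ± 0.32 (0.192). With the KO libraries paired by label the KO value in a fit of their own was 0.99 and passed (adjusted p = 0.0272), but it did not pass with the label as a block over all 12 libraries (1.01, adjusted p = 0.25). The WT call was lost without CD41neg WT 2, CD41neg WT 4, CD41pos WT 1 or CD41pos WT 4 (0.053 to 0.0911), and the value from the 8 libraries was 0.71 (0.378). KO against WT values of P2rx1 were -0.24 ± 0.32 in CD41pos and 0.25 ± 0.32 in CD41neg HSCs (adjusted p = 0.623 and 0.649).

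P2ry12, the Gi-coupled ADP receptor and target of clopidogrel, was barely detected in any group. It had 4, 1 and 3 counts in CD41neg WT 2, 3 and 4 and 8, 59 and 19 counts in CD41pos WT 1, 3 and 4. In KO libraries 1, 2 and 3 it had 29, 16 and 23 counts in CD41neg and 41, 28 and 28 in CD41pos HSCs. CD41pos WT 3 was the highest of all libraries, and the CD41neg WT libraries were the lowest. P2ry12 rose with the gate in WT by a log2 of 3.39 ± 0.88 (adjusted p = 0.0446). The value was 2.04 without CD41pos WT 3 (adjusted p = 0.132), and the call was lost in 9 of the 12 fits that left out 1 library. With a term for the WT libraries that stood apart the value was 2.84 and missed the threshold (adjusted p = 0.0673). In KO against WT the value was 2.85 ± 0.87 in CD41neg (adjusted p = 0.0634) and -0.04 ± 0.76 in CD41pos HSCs (0.978). In the fit of 8 libraries the gate value in WT was 5.68, from 1 count in CD41neg WT 3 and 59 counts in CD41pos WT 3.

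Tbxa2r, the thromboxane receptor, was the only member called in all 4 comparisons between groups. It had 14.1, 15.2 and 13.8 CPM in CD41neg WT 2, 3 and 4 and 49.4, 59.2 and 46.2 CPM in CD41pos WT 1, 3 and 4. In KO libraries 1, 2 and 3 it had 4.51, 1.98 and 6.94 CPM in CD41neg and 20.8, 21.8 and 26.5 CPM in CD41pos HSCs. The 4 groups did not overlap, and CD41pos KO lay between the WT gates. In KO against WT, Tbxa2r fell by 1.16 ± 0.32 on the log2 scale in CD41pos (adjusted p = 0.03) and fell by 1.68 ± 0.33 in CD41neg HSCs (0.0139). It rose with the gate by 1.84 ± 0.33 in WT (adjusted p = 0.00875) and 2.36 ± 0.34 in KO (0.00285). The CD41pos KO against WT call was lost without CD41pos WT 1, CD41pos WT 3 or any 1 of the 3 CD41pos KO libraries (0.0538 to 0.104). With the replicate number as a block, which pairs no mice across genotypes, that value was -1.07 and missed the threshold (adjusted p = 0.0851). With the label as a block over all 12 libraries, the gate value in WT was 1.85 and missed it (adjusted p = 0.101). In the fit of 8 libraries the values were -1.28 and -1.76 for KO against WT in CD41pos and CD41neg HSCs (adjusted p = 0.0785 and 0.071) and 1.895 for the gate in WT (0.0783), each with 1 library in a WT arm.

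Ptgir, the prostacyclin receptor, moved the other way. It had 4.58, 3.07 and 1.92 CPM in CD41neg WT 2, 3 and 4 and 2.39, 2.16 and 3.92 CPM in CD41pos WT 1, 3 and 4. In KO libraries 1, 2 and 3 it had 13.6, 4.44 and 9.91 CPM in CD41neg and 7.26, 5.23 and 10.8 CPM in CD41pos HSCs. KO libraries lay above WT libraries except that CD41neg KO 2 lay just under CD41neg WT 2. Ptgir rose in KO against WT CD41pos HSCs by a log2 of 1.46 ± 0.45 (adjusted p = 0.0448), and the CD41neg value was 1.54 ± 0.45 (0.0556). The CD41neg value passed with DESeq2 (adjusted p = 0.00798), no filter (0.0486), a stricter filter (0.0487) and the Y-linked covariate (0.0313). It also passed without CD41pos WT 3 (0.0343) or CD41neg KO 2 (0.0359), and in none of the other fits. The CD41pos call was lost in 7 of the 12 fits that left out 1 library (CD41neg WT 3, CD41pos WT 1, CD41pos WT 3, CD41neg KO 3 or any 1 of the CD41pos KO libraries, adjusted p of 0.0554 to 0.154), and with a term for the WT libraries that stood apart (0.0601). Between gates Ptgir differed by -0.17 ± 0.45 in WT and -0.26 ± 0.44 in KO (adjusted p = 0.866 and 0.912). The TPM ratio of Tbxa2r to Ptgir was 3.95 to 8.50 in CD41neg WT, 15.0 to 35.6 in CD41pos WT, 0.418 to 0.898 in CD41neg KO and 3.10 to 5.20 in CD41pos KO libraries. The Tbxa2r transcript level was thus below that of Ptgir in the CD41neg KO libraries and above it in the 9 others. Ptgir was low, at 0.8 to 2.1 TPM in CD41neg WT and 0.7 to 1.8 TPM in CD41pos WT libraries. The TPM values have 1 decimal, so these ratios are coarse.

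Ptger4, the EP4 receptor, passed the test in none of the comparisons. It had 50.7, 54.0 and 45.5 CPM in CD41neg WT 2, 3 and 4, 42.9, 24.6 and 36.7 CPM in CD41pos WT 1, 3 and 4, 61.5, 56.5 and 60.2 CPM in CD41neg KO 1, 2 and 3 and 34.6, 31.0 and 40.6 CPM in CD41pos KO 1, 2 and 3. All CD41pos libraries lay below all CD41neg libraries. The log2 difference between gates was -0.53 ± 0.19 in WT (adjusted p = 0.121) and -0.75 ± 0.19 in KO (0.0553), and with the KO libraries paired by label the KO value in a fit of their own was -0.77 and passed (0.00633), but it did not pass with the label as a block over all 12 libraries (-0.76, 0.159). With a term for the WT libraries that stood apart the gate value in KO was -0.75 and passed (adjusted p = 0.0412). The KO against WT values were 0.03 ± 0.19 in CD41pos and 0.25 ± 0.19 in CD41neg HSCs (adjusted p = 0.94 and 0.422).

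The library kit does not mark the strand, so reads of genes that overlap cannot be told apart by strand. F2rl2 lies within Iqgap2, a gene of the opposite strand with which it shares 0 exonic bases. Iqgap2 passed the test in none of the comparisons, with log2 values of 0.41 and 0.52 for KO against WT and 0.16 and 0.05 between gates. The CPM of F2rl2 divided by that of Iqgap2 was 0.010 to 0.034 in CD41neg WT, 0.283 to 0.446 in CD41pos WT, 0.073 to 0.118 in CD41neg KO and 0.524 to 0.579 in CD41pos KO libraries. P2ry12 lies within Med12l, a mediator subunit gene of the opposite strand, with 9 shared exonic bases. Med12l rose in all 4 comparisons, by 0.91 and 1.11 for KO against WT in CD41pos and CD41neg HSCs (adjusted p = 0.0436 and 0.0353) and by 1.95 and 1.74 with the gate in WT and KO (0.00324 and 0.0059). The part of Med12l reads in the few P2ry12 counts was not tested. P2ry1 shares 992 exonic bases with the antisense gene Gm37035, whose group means were 0.27 to 0.87 CPM. Ptger4 shares 82 exonic bases with Ttc33, which passed the test in none of the comparisons, and 1015 exonic bases with the processed pseudogene Gm15937, which was not analysed here. Of 8 tested genes that neighbour the receptors, Med12l was the only one to pass.

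On the ligand side, 22 of 23 genes that make, clear or restrain thrombin, adenine nucleotides and prostanoids were tested. In KO against WT, 2 rose and 3 fell in CD41pos HSCs, and 0 rose and 3 fell in CD41neg HSCs, beside 17.1% and 7.82% of all tested genes called. F10, the coagulation factor that activates prothrombin, fell by 2.06 ± 0.43 on the log2 scale in CD41pos HSCs and fell by 3.15 ± 0.48 in CD41neg HSCs. Serpine2, a thrombin-inhibiting serpin, fell by 2.65 ± 0.38 and dropped by 3.18 ± 0.40, and Ptges, a prostaglandin E synthase, fell by 2.67 ± 0.62 and dropped by 2.82 ± 0.62 (adjusted p of 0.00222 to 0.0209 for these 6 values). Thbd, the thrombin-binding cofactor thrombomodulin, rose in CD41pos HSCs by 1.51 ± 0.23 (adjusted p = 0.003), from 21.3 ± 4.46 to 60.6 ± 0.70 CPM (mean ± SD, n = 3). Nt5e, the ecto-enzyme that turns AMP into adenosine, rose there by 3.20 ± 0.98 (adjusted p = 0.0425) at a mean of 4.47 CPM, and was named after its values were seen. With the gate, F10, Serpine2 and the cyclooxygenase gene Ptgs1 rose in both genotypes, Ptgs1 by 1.21 ± 0.28 in WT and 1.41 ± 0.28 in KO (adjusted p = 0.0276 and 0.0185), and Thbd in KO by 1.68 ± 0.23 (0.00206). These were 3 of 22 genes in WT and 4 of 22 in KO, with 0 lower, beside 2.72% and 1.56% of all tested genes called higher.

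Of 20 tested receptors of the same families or ligands, 2 rose and 1 fell in KO against WT CD41pos HSCs, and 1 rose in CD41neg HSCs, beside 17.1% and 7.82% of all tested genes called. Ptger3, the Gi-coupled prostaglandin E2 receptor EP3, rose in CD41pos HSCs by 0.71 ± 0.19 (adjusted p = 0.0252) and with the gate by 1.06 ± 0.19 in WT and 1.12 ± 0.19 in KO (0.00856 and 0.00705). Htr2a, a Gq-coupled serotonin receptor of platelets, rose in KO against WT by 2.15 ± 0.53 in CD41pos and 2.07 ± 0.54 in CD41neg HSCs (adjusted p = 0.0198 and 0.0378). Adora2b, a Gs-coupled adenosine receptor, fell by 1.72 ± 0.54 in CD41pos HSCs (adjusted p = 0.0465).

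Among 20 G protein subunits, 5 rose and 1 fell in KO against WT CD41pos HSCs and 3 rose and 1 fell in CD41neg HSCs, beside 17.1% and 7.82% of all tested genes called. Gnaq, the alpha subunit used by P2Y1, PAR4 and TP, rose by 0.62 ± 0.15 and 0.83 ± 0.15, and Gna13 by 0.60 ± 0.10 and 0.40 ± 0.10 in the 2 gates (adjusted p of 0.00427 to 0.0338). Gnb4 rose by 1.45 ± 0.21 and 0.98 ± 0.21 (adjusted p = 0.00273 and 0.0183), and Gna14 rose in CD41pos HSCs by 1.56 ± 0.29 (adjusted p = 0.00634). Gnai3 rose by 0.78 ± 0.24 and Gna11 fell by 0.61 ± 0.16 in CD41pos HSCs (adjusted p = 0.045 and 0.0226), both named after their values were seen. Gnai1 fell by 4.09 ± 1.04 in CD41neg HSCs (adjusted p = 0.0352) from a mean of 1.74 CPM. With the gate in WT, Gnaz, a Gi-family subunit abundant in platelets, rose by 1.75 ± 0.27 and Gng11 by 0.95 ± 0.22, while Gna14 fell by 2.15 ± 0.29 and Gna12 fell by 0.79 ± 0.16 (adjusted p of 0.00213 to 0.0297). In KO, Gnaz rose by 1.52 ± 0.27 and Gna12 fell by 0.72 ± 0.16 (adjusted p = 0.00974 and 0.028).

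Of 42 tested effectors downstream of these receptors, 12 rose and 0 fell in KO against WT CD41pos HSCs, and 6 rose and 0 fell in CD41neg HSCs. Of all tested genes 9.79% were higher and 7.27% lower in CD41pos, and 3.85% higher and 3.97% lower in CD41neg HSCs. The list median was 0.26 and 0.18, beside -0.08 and -0.03 over all tested genes. Prkca, the protein kinase C alpha of platelet secretion, rose by 1.09 ± 0.15 in CD41pos and 1.04 ± 0.15 in CD41neg HSCs (adjusted p = 0.0021 and 0.00362). Pde3b, a cyclic nucleotide phosphodiesterase, rose by 1.97 ± 0.33 and 1.28 ± 0.32 (adjusted p = 0.00427 and 0.0352), and the kinase A regulatory subunit Prkar2b rose in CD41pos HSCs by 1.28 ± 0.18 (0.00234). Rap1b, the small GTPase that activates platelet integrins, rose in CD41pos HSCs by 0.73 ± 0.12 (adjusted p = 0.00371). With the gate, 5 effectors rose and 1 fell in WT and 7 rose and 1 fell in KO, beside 5.59% and 2.79% of all tested genes called. Rap1b rose by 1.35 ± 0.12 and 1.72 ± 0.12 (adjusted p = 0.000164 and 2.28e-05) and Prkca by 1.42 ± 0.15 and 1.46 ± 0.15 (0.00054 and 0.000338). Rasgrp2, the exchange factor of Rap1, rose by 1.52 ± 0.22 in WT (adjusted p = 0.00307), and the adenylyl cyclase gene Adcy7 was the one that fell, with log2 values of -0.70 ± 0.12 in WT and -0.61 ± 0.12 in KO (0.00764 and 0.0182).

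Of 15 genes that switch these receptors off, 3 rose in KO against WT CD41pos HSCs and 2 in CD41neg HSCs, and 0 fell, beside 17.1% and 7.82% of all tested genes called. Arrb1, which encodes beta-arrestin, rose by 0.76 ± 0.15 and 0.59 ± 0.15 (adjusted p = 0.00925 and 0.0394) and Rgs1 by 1.30 ± 0.41 and 1.46 ± 0.41 (0.0462 and 0.0482). Rgs18, the G protein regulator most typical of platelets, rose in CD41pos HSCs by 0.82 ± 0.19 (adjusted p = 0.015) and with the gate by 0.93 ± 0.19 in WT and 1.20 ± 0.19 in KO (0.0173 and 0.00556). With the gate in WT, Arrb2 rose by 0.98 ± 0.20 while Arrb1 fell by 0.68 ± 0.15 (adjusted p = 0.0151 and 0.0263).

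**Figure D4:**
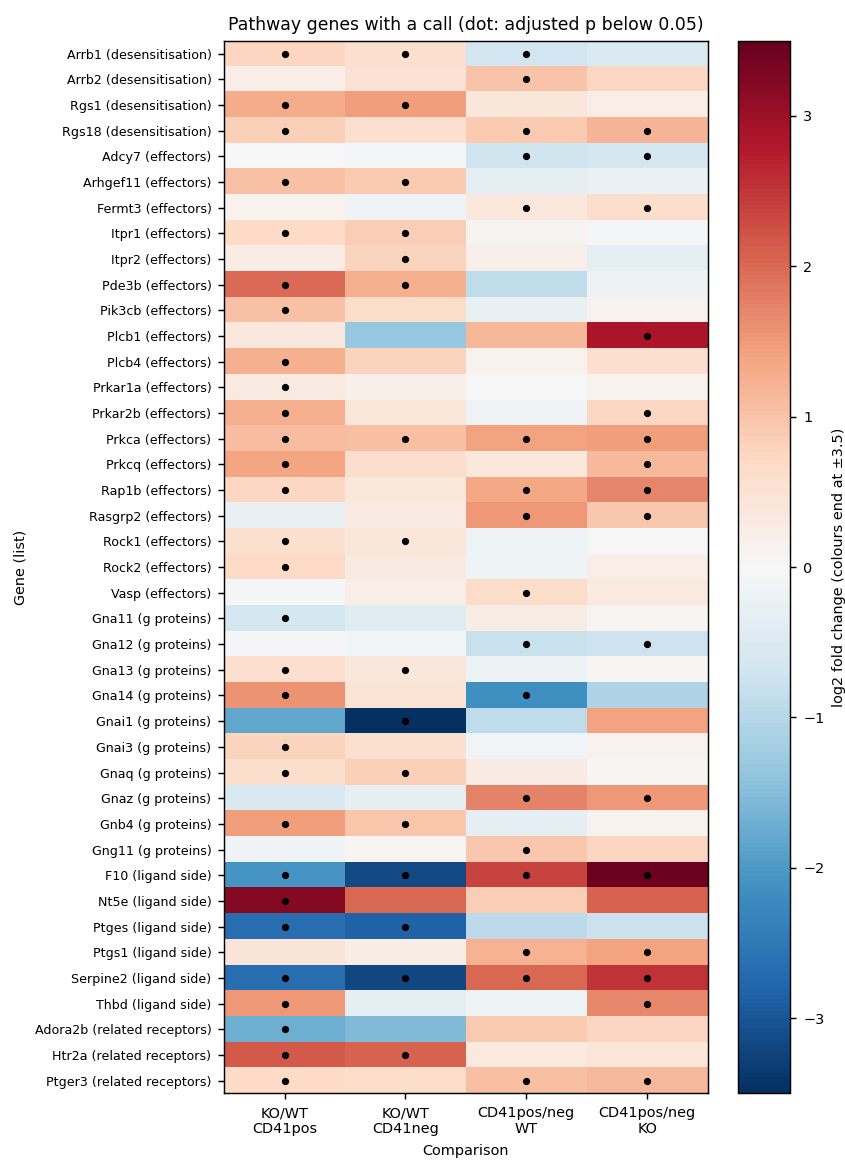
Log2 fold changes (colour) of the genes of the 5 pathway lists that passed the test in at least 1 comparison, in the 4 comparisons between groups, with a dot for an adjusted p below 0.05. All dotted effector genes in both KO against WT columns are higher, while F10, Serpine2 and Ptges are lower in both.

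Megakaryocyte and platelet markers moved with the gate. Of 18 such markers 12 rose in WT and 11 in KO, and none fell, beside 2.72% and 1.56% of all tested genes called higher. The list holds Itga2b, the gene of the protein used for the sort, so its rise with the gate is not independent of gating. The summed level of the 18 markers was 667 to 949 CPM in CD41neg WT and 1960 to 2588 in CD41pos WT libraries. It was 859 to 1110 CPM in CD41neg KO and 2969 to 3550 in CD41pos KO libraries, with no marker at 0. In KO against WT 4 rose in CD41pos HSCs (Gp1ba, Gp5, Treml1 and Rab27b) and 1 fell (Pf4), and 3 rose in CD41neg HSCs (Itga2b, Treml1 and Rab27b). Of all tested genes 17.1% were called in CD41pos and 7.82% in CD41neg HSCs. Markers of other marrow cells were present as well. The 10 neutrophil markers summed to 1990 to 2952 CPM in CD41neg WT, 5001 to 6248 in CD41pos WT, 461 to 1230 in CD41neg KO and 1799 to 4075 in CD41pos KO libraries, which is the order of groups seen for Tbxa2r except that CD41neg WT and CD41pos KO overlapped. The median neutrophil marker did not follow this sum between gates, with log2 values of -0.71 in WT and -0.89 in KO. Of the 10 neutrophil markers 3 rose with the gate in each genotype, beside 2.72% and 1.56% of all tested genes called higher. In KO against WT 4 of them fell in CD41pos and 3 in CD41neg HSCs, and 0 rose. Of all tested genes 7.27% and 3.97% were lower there. Of the neutrophil sum, Mpo alone held 1084 to 1927 CPM in CD41neg WT and 2789 to 4211 CPM in CD41pos WT libraries. It held 297 to 714 CPM in CD41neg KO and 1278 to 2924 CPM in CD41pos KO libraries. The 14 endothelial and stromal markers summed to 361 to 1035 CPM in CD41neg WT and 190 to 224 CPM in CD41neg KO libraries. Of these markers 7 fell there, 0 rose and 7 did not pass, beside 3.97% of all tested genes called lower. Tek went the other way, with 27.7 to 38.9 CPM in CD41neg WT and 60.7 to 69.0 CPM in CD41neg KO libraries. Col1a1 alone held 2.38 to 361 CPM in CD41neg WT libraries. F2rl1, with 15 to 40 counts in CD41neg WT libraries, was also called lower in CD41neg HSCs. In CD41pos HSCs 5 of the 14 fell and 1 rose, beside 7.27% lower and 9.79% higher of all tested genes. The F2rl1 value in CD41pos HSCs was 0.52 (adjusted p = 0.666). The 11 lymphoid markers found summed to 458 to 3102 CPM in CD41neg WT and 127 to 859 CPM in all other libraries. Of the lymphoid sum, Jchain alone held 276 to 2822 CPM in CD41neg WT libraries. The 10 monocyte and macrophage markers summed to 113 to 572 CPM, the 10 basophil and mast cell markers to 601 to 1319 CPM and the 9 erythroid markers to 778 to 3506 CPM. Of the basophil and mast cell sum, Gata2 alone held 418 to 563 CPM in CD41neg WT and 498 to 620 in CD41neg KO libraries. Prss34 had 59.5 to 350 CPM in CD41neg WT and 0.323 to 0.774 in CD41neg KO libraries. Of 9 tested markers of these cells, 3 fell and 0 rose in KO against WT in each gate. Of all tested genes 7.27% were lower in CD41pos and 3.97% in CD41neg HSCs. Tpsb2, a mast cell tryptase gene, was at 0 in all groups but CD41pos WT, and no other marker was at 0 throughout a group. The part of these cell types in the receptor differences was not tested.

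Genes whose levels ran most closely with a receptor over the 12 libraries were found by Pearson's r of log2(CPM + 1), given without a p because the libraries share their groups. F2rl2 ran with Itga2b (r = 0.990), the gate's own marker, and with the granule secretion gene Rab27b (0.989) and Neil3 (0.977). F2r ran with the HSC marker Slamf1 (r = 0.986), whose mean level went from 24.7 CPM in CD41neg WT to 130 CPM in CD41pos KO, and then with Ormdl1 (0.980) and LOC108168225 (0.975). P2ry1 ran with St3gal2 (r = 0.961), Nt5c3 (0.951) and the sialomucin gene Podxl (0.9503), which had 28.0 CPM in CD41pos WT and 212 CPM in CD41pos KO. Tbxa2r ran with Nupr1 (r = 0.991), Gbx2 (0.962) and Nrep (0.962), F2rl3 with Susd3 (0.980), Tmem159 (0.976) and Slc35e4 (0.974), and P2rx1 with Pla2g15 (0.977) and Ica1 (0.969) among others. No gene was nearest to more than 1 of these 6 receptors.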

How the data were processed

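Sorted cells were made into libraries with a SMART-Seq v4 kit, per the labels' protocols, and this kit does not mark the strand. STAR 2.6.1e, featureCounts 1.6.2, FastQC 0.11.7, cutadapt 1.9.1 and the build mm10 were used, per the submitters' processing notes, with settings not given in these sources. Whole read counts per gene, without normalisation, were deposited by the authors. TPM values for those genes were deposited by the authors in a table of their own. Of the gene names that came with the counts, 27 had turned into dates and were restored from the TPM values' names.

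All tests used the counts. A single edgeR 4.0.16 quasi-likelihood model (R 4.3.3, TMM scaling, filterByExpr) held 1 mean for each of the 4 groups over the 12 libraries, and it tested 19395 genes and left out 16474. P-values were two-sided and adjusted by Benjamini-Hochberg over all tested genes, with a threshold of 0.05, and the SE was derived from the F statistic. CPM are counts scaled to library size by edgeR with the TMM factors. TPM served to compare genes and as an alternative unit. Alternatives were DESeq2 1.42.0, its size factors, other filters, replicate blocks, and limma 3.58.1 on log2(TPM + 1) and log2(TPM + 0.1). Others were a term for the 4 WT libraries that stood apart, a covariate of the level of Y-linked genes, and leaving out each library. No label names a batch. The fit without the 4 WT libraries numbered up to 6 was chosen after seeing the data. The receptors and the gene lists were chosen with earlier results of these data known. Genes were named by a rule: all 10 receptors, up to 4 genes per list and comparison with the smallest adjusted p, overlapping and neighbouring genes, Runx1 and Itga2b, and the 3 genes (predicted genes left out) of highest Pearson's r with each called receptor of at least 10 CPM in a group; the few others are marked as named after their values were seen. A gene that this rule names is left out here. The fit was tested on simulated data. Each of 12 pairs of replicate libraries was further apart than counting error allows (chi-square over degrees of freedom of 14.8 to 259).

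Libraries of the same KO label deviated together across gates (correlations of 0.429, 0.608 and 0.469 over 11386 genes), so KO libraries of 1 label count as pairs. For WT 3 and WT 4, the only WT labels present in both gates, the values were 0.098 and -0.48, and these were not taken as pairs. The depth limits F2rl1 and P2ry12, which had 1 to 59 counts per library.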

Additional observations from a re-analysis of the deposited data

How the results depend on the processing

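In the 12 fits that each left out 1 library, 2 to 5 of the 10 receptors passed in KO against WT CD41pos HSCs (4 with all libraries), 2 to 6 in CD41neg HSCs (4), 2 to 6 between gates in WT (5), 3 to 5 between gates in KO (3) and 0 in the interaction. With the replicate number as a block, which pairs no mice across genotypes, the counts were 2, 2, 2 and 3. The calls lost were Tbxa2r (adjusted p = 0.0851) and Ptgir (0.145) in KO against WT CD41pos HSCs, F2r (0.0518) and F2rl1 (0.144) in CD41neg HSCs, and F2rl3 (0.104), P2rx1 (0.114) and P2ry12 (0.177) between gates in WT. With the replicate label within each genotype as a block, 1 passed between gates in WT, F2rl2, with Tbxa2r at 1.85 (adjusted p = 0.101). In KO 3 passed with that block, and 6 passed with it in the KO libraries alone. The labels do not state that a replicate label is 1 animal. Fits of only the groups compared gave 3 between gates in WT and 5 in KO, and DESeq2 gave 5 in KO. limma on either TPM scale gave 2 in KO against WT CD41pos HSCs and 3 between gates in WT. In the fit without the 4 WT libraries that stood apart, which leaves 1 library in each WT arm, the P2ry12 interaction value was -5.16. The cause of these shifts was not tested. No called value changed sign in any of the fits run, and 34 values without a call did. Over all genes, counts past the threshold moved by more than 1.5 times in several settings. DESeq2 gave 5066, 3096, 2428, 1321 and 73 genes, against 3309, 1517, 1084, 541 and 0. The number block gave 957, 458, 378 and 328, and the replicate label block gave 42 and 156 between gates and 1 in the interaction. The KO libraries alone gave 2222. Fits of only the groups compared gave 2154, 201 and 1505 for CD41pos KO against WT and the gates in WT and KO. With limma on log2(TPM + 0.1) there were 2090 in CD41pos KO against WT and 26 in the interaction. With no filter there were 2 in the interaction. The 8 libraries also moved the counts, except in CD41neg KO against WT. Leaving out 1 library gave 1010 (without CD41pos KO 2) to 4270 genes in KO against WT CD41pos HSCs, 367 (without CD41neg KO 3) to 3852 (without CD41pos WT 3) in CD41neg HSCs, 460 (without CD41neg WT 4) to 1200 between gates in WT, 199 (without CD41pos KO 2) to 1094 (without CD41pos WT 3) in KO and 0 to 2 in the interaction, so the shares over all genes move as well. limma on log2(TPM + 0.1) moved the median of all genes in KO against WT CD41pos HSCs from -0.08 to 0.11. CD41pos WT 3 was low on the TPM relative to the CPM scale, by a median log2 of -0.43 from the mean of the libraries.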

Other observations

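The replicate label KO 2 held an extreme of the 3 CD41neg KO libraries for all 10 receptors: the highest level for 3 (F2r, F2rl2 and P2ry1) and the lowest for 7. For F2rl1 the lowest place rests on 2 counts, beside 2 counts in CD41neg KO 1. How often KO 2 held an extreme over all genes was not computed. CD41neg KO 2 was also apart from KO 1 and KO 3 over all genes compared. The chi-square over degrees of freedom was 88.7 and 72.7, against 14.8 between CD41neg KO 1 and KO 3. The pattern is thus not shown to be particular to the receptors. In the CD41pos gate KO 2 was again highest for F2r, F2rl2 and P2ry1, and it was lowest for 4, namely F2rl3, P2rx1, Ptgir and Ptger4. The KO 2 libraries are those that held Xist, at 308 and 318 CPM, while the KO 1 and KO 3 libraries held 0.84 to 1.00 CPM. With the Y-linked level as a covariate, F2rl1 in KO against WT CD41neg HSCs and P2ry12 between gates in WT lost their calls (edgeR, adjusted p = 0.0615 and 0.0504), while F2rl3 in CD41pos HSCs (log2 of -0.73, adjusted p = 0.0251) and Ptgir in CD41neg HSCs (1.32, 0.0313) gained one. This pattern was noticed in the data and has no test.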
